A study of Mus musculus with 6 samples.

Results

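The data cover 10 genes that Wnt signalling drives in the hepatocytes around the central vein, in the livers of mice that lack Klf15 in the liver and of controls. The members are Notum, Axin2, Lgr5, Tbx3, Rnf43, Znrf3, Rhbg, Lect2, Cyp1a2 and Rgn, a list given by name and chosen with earlier results of these data known. All 10 were found by symbol, each as 1 gene, among the 48432 genes of the deposited table. The Li-KO group (3 libraries) holds 10-week-old mice with a liver-specific Klf15 knockout, and the Ctl group (3 libraries) holds mice of the same age that carry Albumin-Cre. Albumin-Cre is a transgene in which the promoter of the albumin gene expresses Cre recombinase in hepatocytes. The labels name no Cre driver for the Li-KO mice, no deleted exon, no sex, no hour of collection and no feeding state. Nor do they say whether each library is a different animal, so the error behind a p-value is that between libraries and may be technical. RNA came from liver and the kit was made for stranded total RNA. In such bulk samples, fewer cells of a type and less RNA per cell cannot be told apart.

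The liver lobule is organised along the flow of blood from the portal vein to the central vein. Endothelial cells of the central vein secrete Wnt2, Wnt9b and R-spondin 3, and the adjacent pericentral hepatocytes respond by stabilising beta-catenin. Beta-catenin then binds TCF/LEF factors on DNA and switches on pericentral enzymes and transporters, as well as proteins that restrain the pathway itself. Among the members, Notum, Axin2, Rnf43 and Znrf3 are such feedback inhibitors, Lgr5 is a receptor for R-spondins, Tbx3 is a transcription factor, and Rgn, Cyp1a2, Lect2 and Rhbg are enzymes, a secreted protein and a transporter of the hepatocyte.

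Library totals were 30716763 to 43375781 fragments in Li-KO and 35711583 to 42745999 fragments in Ctl, and each member passed the filter on low counts. Klf15 was at 54.3, 41.6 and 51.8 CPM (counts divided by the scaled library size) in Li-KO replicates 0, 1 and 2. In Ctl replicates 0, 1 and 2 it was at 345, 174 and 196 CPM, highest in Ctl replicate 0. Its log2 fold change was -2.28 ± 0.26 SE (edgeR quasi-likelihood test, adjusted p = 0.00275). The summed level of 12 endothelial markers was 499 to 788 CPM in Li-KO and 604 to 670.5 CPM in Ctl, and 0 of the 12 changed (edgeR quasi-likelihood test; 1 was lower at an unadjusted p under 0.05, and 0 passed with DESeq2 or limma-voom). None of 7 Kupffer cell markers changed (275 to 403 CPM in Li-KO, 302 to 430.5 CPM in Ctl), nor did any of 7 stellate and fibroblast markers (551 to 685 CPM in Li-KO, 562 to 589.8 CPM in Ctl). At an unadjusted p under 0.05, 0 of these Kupffer cell markers and 2 of these stellate and fibroblast markers differed, and 0 of either passed with DESeq2 or limma-voom. Of 6 measured hepatocyte markers 1, Tdo2, fell, with sums of 18819 to 22728 CPM in Li-KO and 16702 to 26872 CPM in Ctl. Cholangiocyte markers summed to 47.4 to 151 CPM in Li-KO and 33.2 to 63.5 CPM in Ctl, and 1 of 5, Sox9, fell. The other 4 did not pass and had log2 fold changes above 0, of 0.17 for Krt7, 0.77 for Krt19, 0.96 for Epcam and 1.36 for Spp1. At an unadjusted p under 0.05, 2 of the 5 were higher and 1 was lower, and DESeq2 called 1 higher and 1 lower. Li-KO replicate 0 held the highest of these cholangiocyte sums and also the highest sum of 6 lymphocyte markers, 7.22 CPM, against 1.14 to 2.12 CPM in the other Li-KO libraries and 1.86 to 2.28 CPM in Ctl. It also held the highest stellate and fibroblast sum, 685 CPM. There Col1a1 was at 33.4 CPM, against 6.46 to 9.57 CPM in the other libraries of both groups. Col3a1 was at 237 CPM, against 40.3 to 91.8 CPM in the others. Reln (205 CPM) and Dcn (143 CPM) of the same list were lowest in Li-KO replicate 0. Without Li-KO replicate 0, Notum (log2 fold change -1.04, adjusted p = 0.04) and Rgn (-0.79, adjusted p = 0.0267) both passed as lower. Neutrophil markers summed to 1.73 to 3.06 CPM in Li-KO and 1.89 to 4.32 CPM in Ctl, with Ly6g at 0 in the Li-KO libraries. Markers of kidney, pancreas, thyroid and brown fat summed to at most 0.321 CPM in Li-KO and 0.350 CPM in Ctl, with Cpa1 and Ucp1 at 0 throughout. The Y-linked Ddx3y was at 121 to 171 CPM in Li-KO and 162 to 198 CPM in Ctl.

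Notum and Rgn fell in Li-KO liver, by 2.20-fold and 2.08-fold in their means. Thus 2 of 10 members fell and 0 rose, where 5.90% of the 16533 genes tested fell and 6.11% rose (edgeR quasi-likelihood test, adjusted p under 0.05 over all genes). The members and the other gene lists were chosen with earlier results of these data known. Their counts beside the shares of all genes are therefore description and not an independent test. At an unadjusted p under 0.05, 4 members were lower and 1 was higher, where 14.8% of all genes were lower and 14.6% higher. DESeq2 called 4 members lower and 1 higher, and 9.97% of the genes it gave an adjusted p lower and 10.3% higher. With limma-voom 2 members were lower and 1 was higher, against 6.11% and 5.98% of all genes. Tbx3 and Lgr5 had lower means and Rhbg a higher mean in Li-KO, by similar folds, and did not pass. For Axin2, Znrf3, Rnf43, Lect2 and Cyp1a2 the group means differed by at most 1.21-fold. The median log2 fold change was -0.20 over the members, with a range of -1.26 to 1.06, and -0.01 over all genes. In CPM the groups did not overlap in 4 members, 3 of them lower (Notum, Axin2, Rgn) and 1 higher (Rhbg), against 35.2% of all genes tested, 17.8% lower and 17.4% higher. In FPKM the groups overlapped for Axin2.

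**Figure D1:**
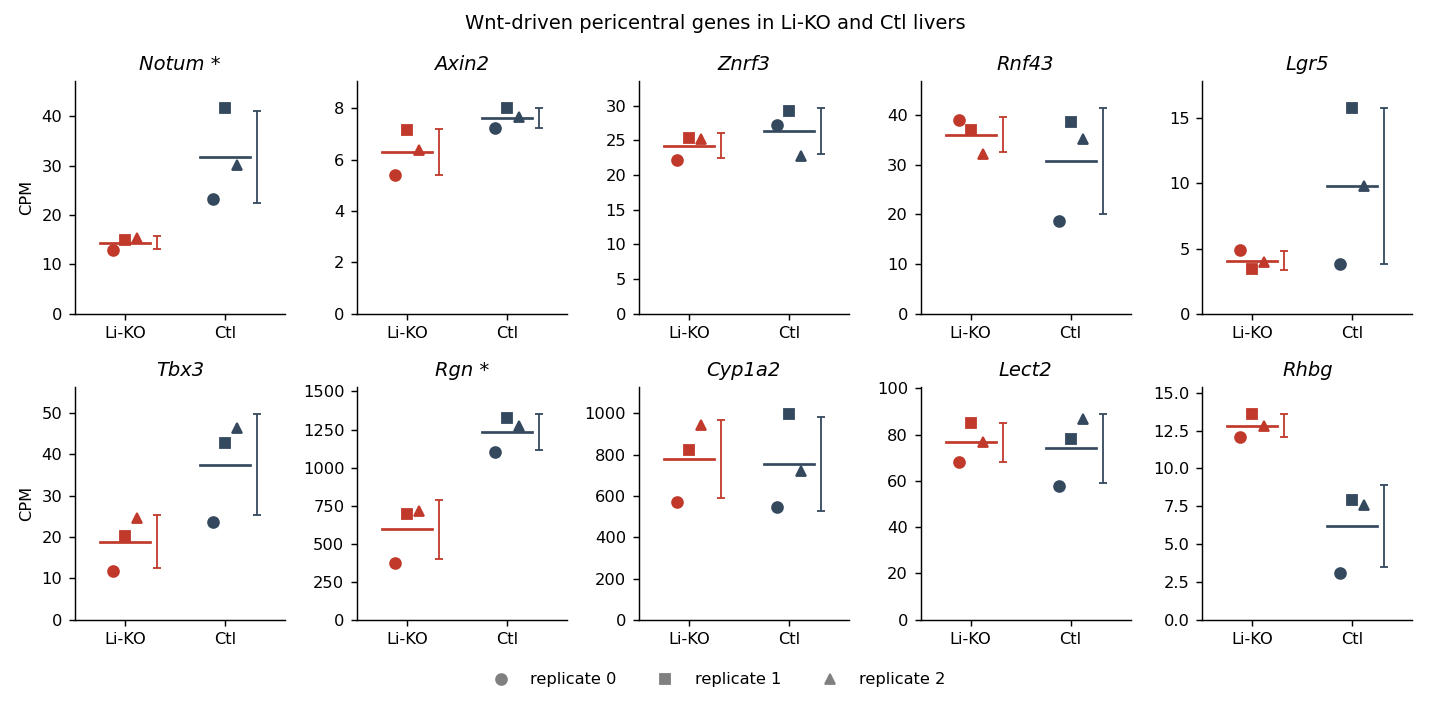
CPM of each member in the 3 Li-KO and 3 Ctl libraries (symbols mark the replicate number, horizontal lines the group mean, bars the SD), each panel on its own linear axis from 0. Stars mark Notum and Rgn, the members with an adjusted p under 0.05. The Li-KO values of both lie below each Ctl value, and those of Rhbg lie above.

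Notum encodes a secreted enzyme that removes the lipid from Wnt proteins and so inactivates them (ENSMUSG00000042988.10, chr11:120653788-120661175, minus strand, mm10). It had 12.8, 15 and 15.3 CPM in Li-KO replicates 0, 1 and 2, against 23.3, 41.7 and 30.2 CPM in Ctl replicates 0, 1 and 2. The Li-KO values lay within 1.20-fold of each other and below the lowest Ctl value. Its mean was 14.4 ± 1.37 CPM in Li-KO and 31.7 ± 9.29 CPM in Ctl (SD, n = 3 each), a log2 fold change of -1.14 ± 0.21 (SE) with an adjusted p of 0.0152. Left without Li-KO replicate 1 or without Ctl replicate 1, Notum no longer passed (adjusted p = 0.0597 and 0.0513). An antisense gene, Notumos, shares 708 exonic bases with Notum and was at 0.820 ± 0.390 CPM in Li-KO and 1.20 ± 0.682 CPM in Ctl. The sources used here do not say whether fragments were counted by strand.

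The other feedback inhibitors did not pass the test. Axin2 (ENSMUSG00000000142.15, chr11:108920349-108950783, plus strand) is a scaffold of the complex that marks beta-catenin for destruction, and its RNA is widely used as a readout of the pathway. It had 5.38, 7.16 and 6.39 CPM in Li-KO replicates 0, 1 and 2, against 7.21, 7.99 and 7.67 CPM in Ctl replicates 0, 1 and 2. The groups did not overlap in CPM, but Li-KO replicate 1 and Ctl replicate 0 nearly met. The log2 fold change was -0.27 ± 0.18 with an adjusted p of 0.365 and a 95% interval of -0.69 to 0.15. Znrf3 and Rnf43 are ubiquitin ligases of the cell membrane that remove Frizzled receptors. Znrf3 (ENSMUSG00000041961.14, chr11:5276324-5444847, minus strand) had 22.2, 25.3 and 25.2 CPM in Li-KO replicates 0, 1 and 2, against 27.2, 29.2 and 22.7 CPM in Ctl replicates 0, 1 and 2. These ranges overlapped, and the log2 fold change was -0.12 ± 0.14 (95% interval -0.44 to 0.20, adjusted p = 0.605). Rnf43 (ENSMUSG00000034177.15, chr11:87662722-87735539, plus strand) had 39.0, 37.1 and 32.1 CPM in Li-KO replicates 0, 1 and 2, against 18.6, 38.6 and 35.2 CPM in Ctl replicates 0, 1 and 2. Only Ctl replicate 0 stood below the other 5 libraries, and without it the log2 fold change was -0.04 in place of 0.23 ± 0.25 (95% interval -0.34 to 0.80, adjusted p = 0.585).

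Lgr5 and Tbx3 had lower means in Li-KO, with overlap between the groups. Lgr5 (ENSMUSG00000020140.15, chr10:115450311-115587780, minus strand), the receptor that marks Wnt-responsive stem cells in other epithelia, had 4.90, 3.40 and 3.94 CPM in Li-KO replicates 0, 1 and 2, against 3.79, 15.8 and 9.82 CPM in Ctl replicates 0, 1 and 2. Ctl replicate 0 lay within the Li-KO range and the highest Ctl value was 4.18 times the lowest. The log2 fold change was -1.26 ± 0.45 (95% interval -2.28 to -0.24, adjusted p = 0.101). Tbx3 (ENSMUSG00000018604.18, chr5:119670669-119684724, plus strand), a T-box repressor that acts in liver development and is a beta-catenin target in liver tumours, had 11.8, 20.3 and 24.5 CPM in Li-KO replicates 0, 1 and 2. It had 23.5, 42.7 and 46.2 CPM in Ctl replicates 0, 1 and 2. Ctl replicate 0 again lay inside the Li-KO range, and the log2 fold change was -0.99 ± 0.31 (95% interval -1.70 to -0.27, adjusted p = 0.0747). Tbx3os1, an antisense gene that shares 115 exonic bases with Tbx3, was at 1.90 ± 0.781 CPM in Li-KO and 5.04 ± 2.10 CPM in Ctl (log2 fold change -1.40 ± 0.42, adjusted p = 0.0631). Without Ctl replicate 0 both members passed as lower, Lgr5 with a log2 fold change of -1.65 (adjusted p = 0.0149) and Tbx3 with -1.24 (adjusted p = 0.0357), and Tbx3 also passed without Li-KO replicate 2 (adjusted p = 0.0489).

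Among the hepatocyte genes, Rgn fell, while the group means of Cyp1a2 and Lect2 differed by 1.03-fold and 1.04-fold and did not pass the test. Rgn (ENSMUSG00000023070.6, chrX:20549787-20562089, plus strand) encodes regucalcin, a calcium-binding protein that in mice also acts as the gluconolactonase of vitamin C synthesis. It had 373, 693 and 717 CPM in Li-KO replicates 0, 1 and 2, against 1104, 1329 and 1273 CPM in Ctl replicates 0, 1 and 2. The Ctl values were within 1.20-fold of each other and each Li-KO value lay below them, Li-KO replicate 0 the furthest. Its mean was 594 ± 192 CPM in Li-KO and 1236 ± 117 CPM in Ctl (SD, n = 3 each), a log2 fold change of -1.06 ± 0.24 (SE) with an adjusted p of 0.0307. Rgn no longer passed when Li-KO replicate 1 (adjusted p = 0.0776), Ctl replicate 1 (0.108) or Ctl replicate 2 (0.0939) was left out. Cyp1a2 (ENSMUSG00000032310.3, chr9:57676937-57683703, minus strand), a cytochrome P450 that oxidises aromatic amines and caffeine, had 569.9, 822 and 944 CPM in Li-KO replicates 0, 1 and 2, against 548, 997 and 721 CPM in Ctl replicates 0, 1 and 2. The ranges nearly coincided, and the log2 fold change was 0.04 ± 0.25 (95% interval -0.54 to 0.62, adjusted p = 0.932). Lect2 (ENSMUSG00000021539.8, chr13:56542464-56548502, minus strand), a secreted protein of hepatocytes first named as a chemotaxin for leukocytes, had 68.1, 85.1 and 76.8 CPM in Li-KO replicates 0, 1 and 2, against 57.6, 78.0 and 86.5 CPM in Ctl replicates 0, 1 and 2. Here too the groups overlapped (log2 fold change 0.05 ± 0.17, 95% interval -0.33 to 0.43, adjusted p = 0.875).

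Promoter sequence was held for 4 members in the RefSeq table (GRCm38.p6, the build also called mm10), in 5 windows because Rnf43 has 2 starts. The windows of 250 bases before the RefSeq start were searched on both strands for CTTTGA, the core of the site that TCF/LEF factors bind. RefSeq starts can differ from the gene coordinates given here, which are from GENCODE M21. Both Rnf43 windows and part of the Cyp1a2 window lie inside those gene coordinates. This core was present in the windows of Cyp1a2 and Lect2, 1 match each, and in neither the Axin2 window nor the Rnf43 windows, while 13.8% of 32817 windows of this length in the table held it. The windows of Cyp1a2 (chr9:57683656-57683905, minus strand), Lect2 (chr13:56548539-56548788, minus strand) and Axin2 (chr11:108920099-108920348, plus strand) are shown 5′ to 3′ along the gene, the first pair for their matches, given in capitals, and that of Axin2, which is 69.2% G and C, for comparison.
Lect2: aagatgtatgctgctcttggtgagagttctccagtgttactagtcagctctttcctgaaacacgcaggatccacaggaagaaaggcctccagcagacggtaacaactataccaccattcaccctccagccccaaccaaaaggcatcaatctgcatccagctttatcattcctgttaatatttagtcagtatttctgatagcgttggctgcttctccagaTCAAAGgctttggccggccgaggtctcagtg
Cyp1a2: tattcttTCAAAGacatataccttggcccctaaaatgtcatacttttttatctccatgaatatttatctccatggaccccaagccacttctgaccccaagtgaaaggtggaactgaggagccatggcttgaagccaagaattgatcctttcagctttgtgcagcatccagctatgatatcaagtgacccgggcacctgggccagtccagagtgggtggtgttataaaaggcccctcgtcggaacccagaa
Axin2: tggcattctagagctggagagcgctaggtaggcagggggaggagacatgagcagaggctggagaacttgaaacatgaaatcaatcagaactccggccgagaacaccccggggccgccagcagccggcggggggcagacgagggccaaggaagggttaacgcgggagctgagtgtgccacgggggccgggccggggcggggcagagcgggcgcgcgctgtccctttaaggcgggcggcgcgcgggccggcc
The match in Lect2 begins 31 bases before the start and reads as the reverse complement, TCAAAG. That in Cyp1a2 begins 243 bases before the start and also reads TCAAAG. A match of these letters is not shown to be a bound site, and neither gene passed the test between Li-KO and Ctl. Notum, Lgr5, Tbx3, Znrf3, Rhbg and Rgn have no window here.

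Rhbg was the member with the highest fold change above 0, and it did not pass the test. It encodes an ammonium transporter of the Rhesus family (ENSMUSG00000104445.1, chr3:88242874-88254709, minus strand), found in liver on pericentral hepatocytes, next to glutamine synthetase. It had 12.1, 13.6 and 12.8 CPM in Li-KO replicates 0, 1 and 2, against 3.07, 7.91 and 7.59 CPM in Ctl replicates 0, 1 and 2. Each Li-KO value lay above each Ctl value, the Li-KO values within 1.12-fold of each other and Ctl replicate 0 well below the other Ctl libraries. The mean was 12.8 ± 0.718 CPM in Li-KO and 6.19 ± 2.71 CPM in Ctl (SD, n = 3 each), a log2 fold change of 1.06 ± 0.32 (95% interval 0.32 to 1.79) with an adjusted p of 0.0669. Rhbg passed only without Ctl replicate 0 among the fits that left out 1 library (log2 fold change 0.73, adjusted p = 0.0478). The gene Gm38392 lies on the same strand and shares 1190 exonic bases with Rhbg, so that the authors' counts split fragments between them. Rhbg took 81.8% to 86.4% of the sum of both genes in Li-KO and 73.0% to 83.8% in Ctl. With the genes summed, the log2 fold change was 0.93 and the adjusted p 0.115. Glul, glutamine synthetase, had 498, 948 and 1063 CPM in Li-KO replicates 0, 1 and 2, against 695, 1561 and 1419 CPM in Ctl replicates 0, 1 and 2 (log2 fold change -0.55 ± 0.35, adjusted p = 0.34).

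Per transcript length, the members spanned from abundant enzymes to genes at low levels. In FPKM (fragments scaled to transcript length and library depth), Cyp1a2 averaged 314 ± 83.2 in Li-KO and 300.1 ± 86.6 in Ctl, and Rgn averaged 280.0 ± 84.0 in Li-KO and 617 ± 74.6 in Ctl (SD, n = 3 each). Rgn was the most abundant member in Ctl, with no overlap with Cyp1a2, while in Li-KO their ranges overlapped and Cyp1a2 had the higher mean. Lect2 followed in both groups, at 74.7 ± 9.22 FPKM in Li-KO and 71.1 ± 12.9 FPKM in Ctl, apart from its neighbours on either side. Below it, the order in Li-KO was Rnf43, Notum, Rhbg, Znrf3, Tbx3, Axin2 and Lgr5, with means of 6.28 to 0.723 FPKM. The ranges of Rnf43, Notum and Rhbg overlapped from each to the next, as did those of Znrf3 and Tbx3. In Ctl the order was Notum, Tbx3, Rnf43, Znrf3, Rhbg, Lgr5 and Axin2, with means of 13.0 to 1.42 FPKM. There the range of Notum lay above that of Tbx3, and each later gene overlapped with the next.

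**Figure D2:**
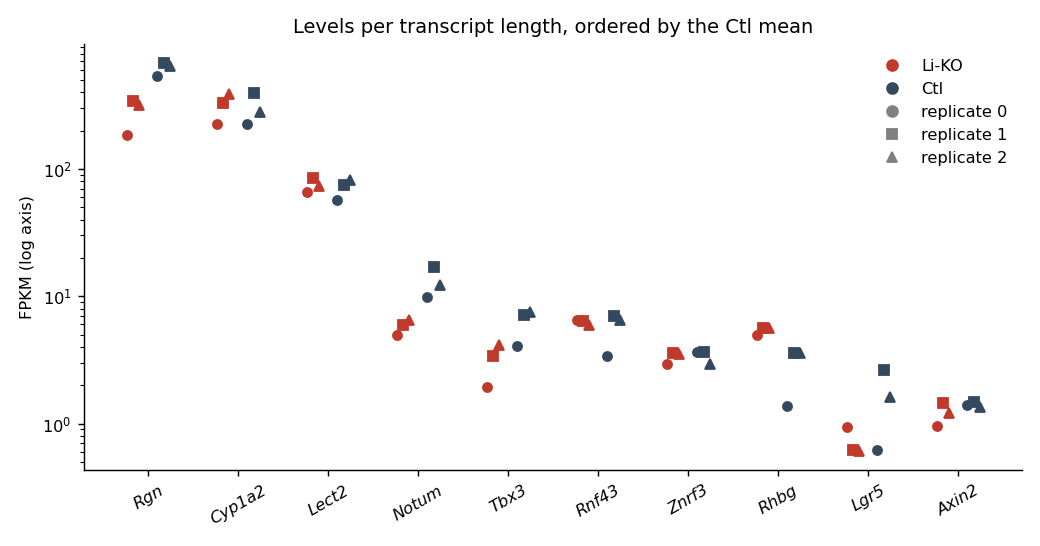
FPKM of each member in each library on a log axis, ordered by the Ctl mean (Li-KO left, Ctl right within each gene, symbols mark the replicate number). Rgn, Cyp1a2 and Lect2 stand at 56.6 FPKM or more in each library. Lgr5 and Axin2 have the lowest group means, with 0.611 to 2.62 FPKM in single libraries. In Ctl replicate 0, Rhbg (1.37 FPKM) lies below Axin2 (1.41 FPKM).

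Libraries of one group differed in the members together. Ctl replicate 0 had the lowest Ctl value in 9 of 10 members and Ctl replicate 1 the highest in 8, whereas each Ctl library was lowest in 33.1% to 33.6% of all genes tested. Li-KO replicate 0 had the lowest Li-KO value in 8 of 10 members, against 36.8% of all genes. The 26 measured other pericentral genes had the lowest Li-KO value in Li-KO replicate 0 for 20 genes and the lowest Ctl value in Ctl replicate 0 for 18. Of 22 periportal genes, which mark the hepatocytes near the portal vein, 15 had their highest Li-KO value in Li-KO replicate 0 and 16 their highest Ctl value in Ctl replicate 0. Among all 16533 genes tested, these numbers were 6219 for Li-KO replicate 0 and 5956 for Ctl replicate 0. The periportal genes did not all go this way. Of the 22, 3 had their lowest Li-KO value in Li-KO replicate 0 and 4 their lowest Ctl value in Ctl replicate 0. The periportal P450 Cyp2f2 was among both. In Ctl replicate 0 the largest log2 differences of periportal genes from their group mean were 1.66 for Sds, 1.19 for Sdsl and 0.98 for Pck1. The median difference from the mean of the own group was -0.41 on the log2 scale for the members and 0.45 for the periportal genes in Ctl replicate 0. In Li-KO replicate 0 it was -0.16 for the members, -0.37 for the other pericentral genes and 0.20 for the periportal genes. Genes of a library are not independent, and the replicate numbers are not stated to pair libraries across groups. Leaving out both libraries numbered 0 was an alternative chosen after their values were seen, with 2 libraries left in each group. These libraries were picked because most pericentral genes were lowest in them. The values of that fit for the members are therefore description and not an independent test. In that fit 4 members fell and 1 rose, with log2 fold changes of -1.22 for Notum (adjusted p = 0.00959), -0.87 for Rgn (0.0138), -1.78 for Lgr5 (0.00997), -0.97 for Tbx3 (0.0118) and 0.79 for Rhbg (0.0434). Of the 16597 genes tested in that fit, 658 fell and 849 rose.

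**Figure D3:**
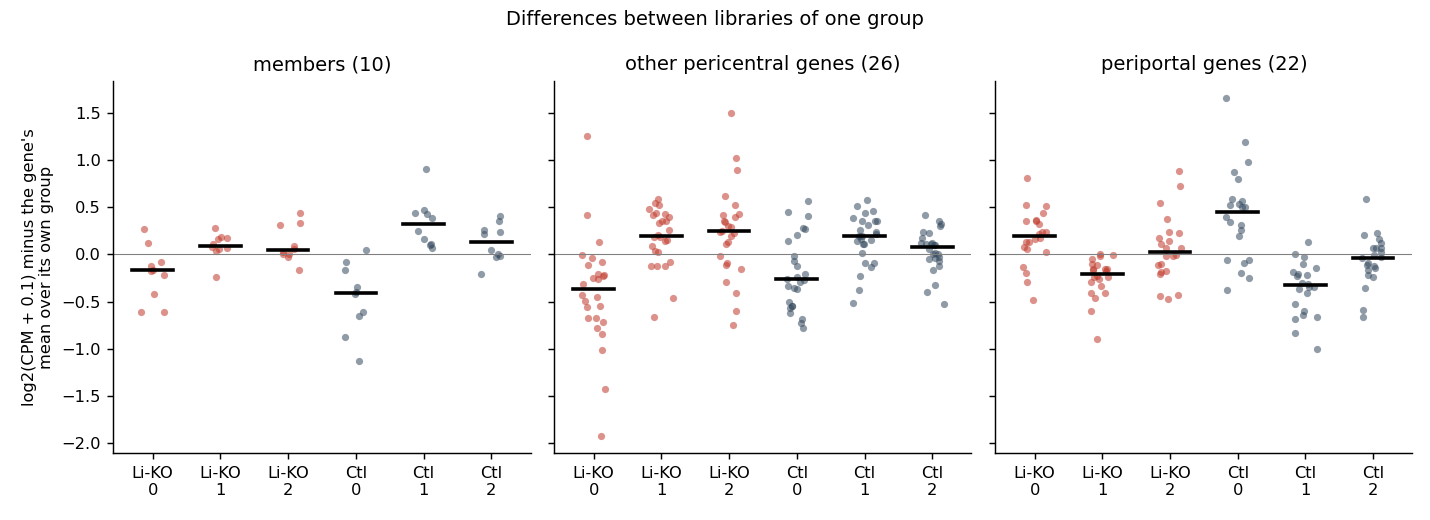
Each point is 1 gene, as its log2(CPM + 0.1) in a library minus its mean over the 3 libraries of the same group, for the 10 members, 26 other pericentral and 22 periportal genes. Black lines are medians. The libraries numbered 0 have the lowest medians in the pericentral panels and the highest in the periportal panel, in both groups.

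Notum, Rgn, Tbx3, Lgr5 and Rhbg kept their sign under each alternative tried, and none of them passed in each. Over 18 alternatives, Notum ranged from -1.32 to -0.87 on the log2 scale and passed in 15, and Rgn ranged from -1.22 to -0.79 and passed in 13. Tbx3 (-1.24 to -0.72) passed in 6 of 18, Lgr5 (-1.78 to -0.53) in 4 of 18 and Rhbg (0.73 to 1.29) in 6 of 19. These counts include the fit without both libraries numbered 0, chosen after their values were seen, in which all 5 passed. That fit also gave the -1.78 of Lgr5. With DESeq2 all 5 passed, Lgr5 with an adjusted p of 0.0193, Tbx3 with 0.0124 and Rhbg with 0.00966. Axin2, Znrf3, Rnf43, Lect2 and Cyp1a2 passed in none of 18.

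**Figure D4:**
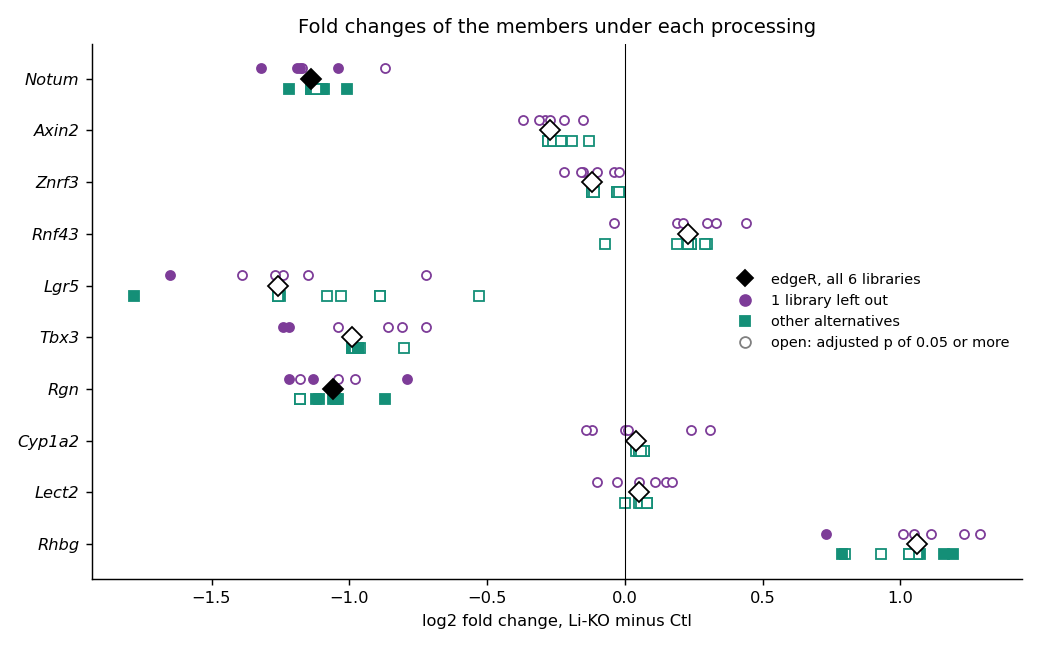
Log2 fold change of each member, Li-KO minus Ctl, in the edgeR fit on 6 libraries (diamonds), in the 6 fits without 1 library (circles) and in the other alternatives (squares). Filled symbols have an adjusted p under 0.05. Notum, Rgn, Tbx3 and Lgr5 lie below 0 and Rhbg above 0 under each alternative.

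Upstream of the members, Wnt2, Wnt9b and Rspo3 did not pass the test, while several intracellular components fell. Of 25 Wnt ligands, R-spondins and secretion factors, 10 were measured, 1 rose and 0 fell (edgeR; 1 was lower at an unadjusted p under 0.05, and 0 with DESeq2 or limma-voom), with a median log2 fold change of 0.18. Over all genes tested, 6.11% rose and 5.90% fell. Wnt2 had 1.06, 1.67 and 6.03 CPM in Li-KO replicates 0, 1 and 2, against 2.97, 5.06 and 3.16 CPM in Ctl replicates 0, 1 and 2, and Wnt9b had 1.83 to 2.75 CPM in Li-KO and 1.37 to 2.23 CPM in Ctl (adjusted p = 0.745 and 0.6). Rspo3, R-spondin 3, averaged 4.51 ± 1.54 CPM in Li-KO and 7.88 ± 1.70 CPM in Ctl (log2 fold change -0.80 ± 0.29, adjusted p = 0.11). Without Li-KO replicate 2, Wnt2 and Rspo3 both passed as lower, with log2 fold changes of -1.45 and -1.07 (adjusted p = 0.0472 and 0.0489). The one that rose was Wnt5b, a ligand best known outside the beta-catenin branch, with 19.4 ± 2.75 CPM in Li-KO and 10.5 ± 1.24 CPM in Ctl (adjusted p = 0.0159). Of 19 receptors and coreceptors 14 were measured and 1 fell, with 13 not past the test (median -0.04; DESeq2 called 1 lower and 1 higher). The one that fell was Gpc4, a heparan sulfate glypican of the cell surface, with 50.2 ± 10.7 CPM in Li-KO and 95.3 ± 7.33 CPM in Ctl (log2 fold change -0.92 ± 0.16, adjusted p = 0.013). The Frizzled receptor Fzd4, the coreceptor Lrp6 and the R-spondin receptor Lgr4 had log2 fold changes of 0.02, -0.03 and 0.18. Of 16 secreted inhibitors, such as the Dkk and Sfrp families, 15 were in the table, 6 were measured and 0 changed (edgeR, median 0.24; 1 was higher at an unadjusted p under 0.05 and with DESeq2, and 0 changed with limma-voom).

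Of 30 genes of the destruction complex and of the nuclear factors that work with beta-catenin, 4 fell and 1 rose (median log2 fold change -0.21), where 5.90% of all genes fell and 6.11% rose. At an unadjusted p under 0.05, 10 of the 30 were lower and 3 higher, where 14.8% of all genes were lower and 14.6% higher. DESeq2 called 8 lower and 2 higher, against 9.97% and 10.3% of the genes it gave an adjusted p. With limma-voom 4 were lower and 1 was higher, against 6.11% and 5.98% of all genes. Tcf7l2, the main TCF factor of hepatocytes, had 13.4, 10.8 and 17.9 CPM in Li-KO replicates 0, 1 and 2, against 30.3, 38.8 and 28.5 CPM in Ctl replicates 0, 1 and 2. Each Li-KO value lay below each Ctl value, and the log2 fold change was -1.21 ± 0.21 with an adjusted p of 0.0121. Gsk3b, the kinase that marks beta-catenin for destruction, averaged 71.1 ± 8.79 CPM in Li-KO and 119 ± 4.17 CPM in Ctl (log2 fold change -0.75 ± 0.12, adjusted p = 0.0104). Bcl9l, a coactivator of beta-catenin, averaged 36.8 ± 1.56 CPM in Li-KO and 68.0 ± 17.1 CPM in Ctl, and Dvl3, a Dishevelled adaptor below the Frizzled receptors, 14.1 ± 2.46 CPM in Li-KO and 23.3 ± 1.55 CPM in Ctl (adjusted p = 0.0215 and 0.0271). The one that rose was Dvl1, another Dishevelled adaptor, named after its value was seen, with 128 ± 6.55 CPM in Li-KO and 90.3 ± 7.95 CPM in Ctl (adjusted p = 0.0297). Ctnnb1, which encodes beta-catenin, had 405, 371 and 376 CPM in Li-KO replicates 0, 1 and 2, against 343, 311 and 328 CPM in Ctl replicates 0, 1 and 2 (log2 fold change 0.23 ± 0.12, adjusted p = 0.226). The scaffolds Apc and Axin1 had log2 fold changes of -0.26 (adjusted p = 0.17) and -0.00 (adjusted p = 0.998). Tcf7l2 no longer passed without Ctl replicate 1 (adjusted p = 0.0541), and Gsk3b (adjusted p up to 0.0557), Wnt5b (0.0702) and Gpc4 (0.0626) no longer passed when either Li-KO replicate 1 or Ctl replicate 1 was left out. The same libraries ended the calls of Bcl9l (up to 0.091), Dvl3 (0.112) and Dvl1 (0.119), Dvl3 and Dvl1 also without Ctl replicate 2, Bcl9l and Dvl1 also without Ctl replicate 0, and Bcl9l also without Li-KO replicate 0.

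**Figure D5:**
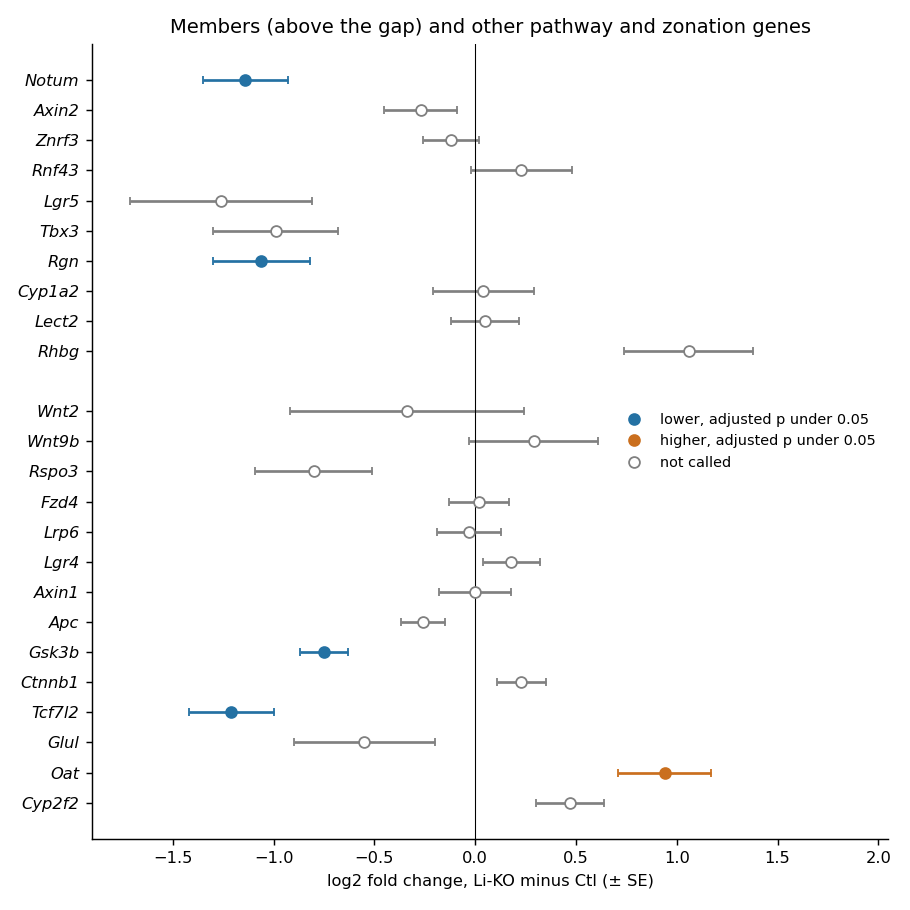
Log2 fold change with its SE, Li-KO minus Ctl, of the 10 members (above the gap) and of ligands, receptors, intracellular components and zonation genes that were named whatever their values (below the gap). Filled symbols have an adjusted p under 0.05. Notum, Rgn, Gsk3b and Tcf7l2 are lower and Oat is higher in Li-KO.

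Pericentral genes outside the member list changed in both directions. Of 27, 26 were measured (the authors' software skipped Cyp2e1 for too many fragments), 4 rose, 4 fell and 18 did not pass, with a median log2 fold change of -0.32 (4 higher and 5 lower with DESeq2). Over all genes tested, 6.11% rose and 5.90% fell (10.3% higher and 9.97% lower with DESeq2). Gstm3, a glutathione transferase, rose with 176 ± 38.0 CPM in Li-KO and 36.8 ± 8.53 CPM in Ctl (log2 fold change 2.26 ± 0.22, adjusted p = 0.00117). Slc22a3, an organic cation transporter, rose with 18 ± 6.95 CPM in Li-KO and 5.56 ± 1.19 CPM in Ctl. Oat, the ornithine aminotransferase of the innermost pericentral layer, rose with 1507, 2022 and 1137 CPM in Li-KO replicates 0, 1 and 2, against 933, 689.6 and 816 CPM in Ctl replicates 0, 1 and 2 (adjusted p = 0.0343). Avpr1a, the vasopressin receptor of hepatocytes, fell with 3.14 ± 2.16 CPM in Li-KO and 23.2 ± 5.68 CPM in Ctl (log2 fold change -2.86 ± 0.43, adjusted p = 0.00775), and Slc1a4, a neutral amino acid transporter, fell with 2.35 ± 0.216 CPM in Li-KO and 8.64 ± 1.98 CPM in Ctl. Named after their values were seen, Tuba8 also rose (log2 fold change 2.38), and Cyp2c29 (-1.27) and Cyp2a5 (-1.01) fell. Cyp2c and Gstm genes have near-identical neighbours, so their values are uncertain. Calls of Gstm3, Slc1a4 and Avpr1a held in each of the 6 fits without 1 library, while those of Slc22a3, Cyp2c29, Cyp2a5, Oat and Tuba8 ended without Ctl replicate 1 or 2 and, except Tuba8, without Li-KO replicate 1, that of Oat also without Li-KO replicate 0 and that of Tuba8 without Ctl replicate 0, with adjusted p up to 0.0637, 0.115, 0.0934, 0.126 and 0.0992.

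Periportal genes had a median log2 fold change of 0.45. Of 24, 22 were measured, 5 rose, 4 fell and 13 did not pass (8 higher and 4 lower with DESeq2). The shares of all genes tested were 6.11% that rose and 5.90% that fell (10.3% higher and 9.97% lower with DESeq2). Hsd17b13, a lipid droplet dehydrogenase, rose with 1015 ± 89.1 CPM in Li-KO and 458 ± 102 CPM in Ctl (log2 fold change 1.15 ± 0.19, adjusted p = 0.00979). Aldh1b1, a mitochondrial aldehyde dehydrogenase, rose with 382 ± 202 CPM in Li-KO and 89.2 ± 51.6 CPM in Ctl, and Fbp1, of gluconeogenesis, with 2024 ± 316 CPM in Li-KO and 1066 ± 142 CPM in Ctl. Otc, of the urea cycle, fell with 139 ± 19.0 CPM in Li-KO and 693 ± 66.6 CPM in Ctl. Named after their values were seen, Asl (log2 fold change 0.91) and Cdh1 (0.64) also rose, and Gls2 (-1.23), Pigr (-0.81) and Agxt (-1.34) fell. Cyp2f2, a P450 that marks periportal hepatocytes, was at 2067 to 2495 CPM in Li-KO and 1412 to 1899 CPM in Ctl (log2 fold change 0.47 ± 0.17, adjusted p = 0.104). Hsd17b13 and Otc kept their calls in each fit without 1 library, while those of Fbp1, Aldh1b1, Asl, Cdh1, Gls2 and Pigr ended without Li-KO replicate 1, Ctl replicate 1 or Ctl replicate 2, some also without other libraries, and that of Agxt without each, with adjusted p up to 0.15.

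The remaining lists were Wnt targets known from other tissues and targets of the Ah receptor, which controls Cyp1a2. The lists share some genes, so their counts are not separate observations. Of these Wnt targets, Sp5 and Nkd1 are also among the other pericentral genes, and Lef1 and Tcf7 among the nuclear factors. Sox9 is also a cholangiocyte marker, and Wnt2, Wnt9b and Rspo3 are both ligands and endothelial markers above. Of 15 such Wnt targets 12 were measured and 2 fell, with 10 not past the test (median log2 fold change -0.56), where 5.90% of all genes fell. Both at an unadjusted p under 0.05 and with DESeq2, 6 of the 12 were lower and 1 was higher. Among all genes, 14.8% were lower and 14.6% higher at an unadjusted p under 0.05. DESeq2 called 9.97% lower and 10.3% higher of the genes it gave an adjusted p. With limma-voom 2 of these Wnt targets were lower and 0 higher. Sox9, a transcription factor of bile duct cells and intestinal crypts, had 3.32, 3.05 and 2.09 CPM in Li-KO replicates 0, 1 and 2, against 11.7, 15.8 and 16.6 CPM in Ctl replicates 0, 1 and 2 (log2 fold change -2.39 ± 0.24, adjusted p = 0.00153). Prox1, a homeobox factor of hepatocytes and lymphatic endothelium, averaged 282 ± 71.8 CPM in Li-KO and 503 ± 109.7 CPM in Ctl (adjusted p = 0.0426, and up to 0.152 in the 5 of 6 fits without 1 library in which its call ended, all but that without Li-KO replicate 2). Of 9 Ah receptor targets 7 were measured and 1 fell, with 6 not past the test (median -0.16; 2 lower at an unadjusted p under 0.05 and 1 lower with DESeq2). The one that fell was Nqo1, a quinone reductase, with 3.0 ± 0.493 CPM in Li-KO and 7.38 ± 3.08 CPM in Ctl (adjusted p = 0.0413, and up to 0.136 without Li-KO replicate 0, Li-KO replicate 1, Ctl replicate 0 or Ctl replicate 1). Ahr itself averaged 75.4 ± 11.1 CPM in Li-KO and 91.1 ± 6.29 CPM in Ctl (adjusted p = 0.221), and Cyp1a1, the neighbour and relative of Cyp1a2, was at 1.51 to 3.31 CPM in Li-KO and 1.17 to 2.56 CPM in Ctl.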

How the data were processed

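The submitters' processing notes name STAR, Cufflinks, Cuffdiff and mm10. The sources used here do not give versions, options or annotation. The authors deposited estimated counts (raw fragments, 3.29% of values not whole) and FPKM, per the file headers, for 48432 genes. Rows of the condition WT were read as Ctl and those of KO as Li-KO, by the sample titles and the numbers in them. The 77 genes that Cuffdiff skipped were left out. Of the gene IDs, 48051 matched a symbol. Coordinates are from GENCODE M21.

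Counts were rounded, filtered with filterByExpr (minimum count 10, total 15; 16533 genes left), scaled by TMM and compared with edgeR 4.0.16 in R 4.3.3 (quasi-likelihood F test), with group as the only term and Benjamini-Hochberg adjustment over all genes tested. A change means an adjusted p under 0.05. Alternatives used DESeq2 1.42.0, limma 3.58.1, other scalings and filters, and the removal of libraries. Summing Rhbg with Gm38392 and leaving out both libraries numbered 0 were added after seeing the data. Fits were tested on simulated data. All members were named, with a fixed set of pathway genes and up to 4 called genes per list by p. Members and lists were chosen with earlier results of these data known.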

Additional observations from a re-analysis of the deposited data

How the results depend on the processing

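The edgeR test gave 1010 genes higher and 976 lower in Li-KO, with 0 members higher and 2 lower. DESeq2 gave 1595 and 1551, with members at 1 and 4, and limma on log2(FPKM + 0.1) with a mean FPKM of at least 0.1 gave 630 and 641. Limma on log2(FPKM + 1) gave 577 and 595, with 1 member lower, and limma on all genes above 0 gave 445 and 460, with 0 members lower. With limma-voom 989 genes were higher and 1010 lower, with members at 1 and 2, and without a filter on low counts 1135 and 1142, with members at 1 and 4. Without both libraries numbered 0 it was 849 and 658, with members at 1 and 4. Fits without 1 library gave 198 to 1102 genes higher and 234 to 1447 lower, with 0 to 1 members higher and 0 to 4 lower. The cause of these differences was not tested. With the replicate number as a block, 1 member rose (Rhbg, adjusted p = 0.0424) and 3 fell (Tbx3 with 0.008 beside Notum and Rgn), with 956 genes higher and 1015 lower. Same-numbered libraries had correlations of 0.02, 0.08 and 0.07 in their deviations from the group means over all genes tested. Differently numbered libraries had -0.11 to 0.04. These values were low and no pairs are stated, so the numbers were not taken as pairs, though the correlations do not exclude pairing. Signs turned for 8 named genes, Rnf43, Lect2, Cyp1a2, Fzd4, Lrp6, Axin1, Hnf4a and Wnt2, and no value with a turned sign passed. Without Ctl replicate 0 the log2 fold change was -0.04 for Rnf43, -0.10 for Lect2, -0.14 for Cyp1a2, -0.06 for Fzd4, 0.03 for Lrp6 and 0.17 for Axin1. Lect2 had -0.03 without Li-KO replicate 1, Cyp1a2 -0.12 and Fzd4 -0.11 without Li-KO replicate 2, and Fzd4 -0.03 and Lrp6 0.03 without Ctl replicate 2. Without Li-KO replicate 0, Wnt2 had 0.07, Lrp6 0.11, Axin1 0.13 and Hnf4a 0.07. Without both libraries numbered 0, Rnf43 had -0.07, Lect2 -0.00, Lrp6 0.17, Axin1 0.31 and Hnf4a 0.10. Fzd4 had -0.06, -0.05 and -0.06 with limma on FPKM, and Axin1 0.00 or 0.01 with DESeq2, limma-voom, the other scalings and count filters, skipped genes at 0 and the block. Over the fits without 1 library, Rnf43 reached 0.44, Lect2 0.17, Cyp1a2 0.31, Wnt2 -1.45, Fzd4 0.15, Lrp6 -0.13, Axin1 -0.09 and Hnf4a -0.19. Klf15, Gstm3, Slc1a4, Avpr1a, Otc, Hsd17b13 and Sox9 passed in all 18 alternatives. Lgr5 had 106 to 162 fragments per Li-KO library and 158 to 588 per Ctl library.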

Other observations

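Ratios between genes within a library, formed after their values were seen, are given without a test. The log2 ratio of Notum to Axin2 was 1.25, 1.07 and 1.26 in Li-KO replicates 0, 1 and 2, against 1.69, 2.38 and 1.98 in Ctl replicates 0, 1 and 2. That of Rgn to Cyp1a2 was -0.61, -0.25 and -0.40 in Li-KO and 1.01, 0.41 and 0.82 in Ctl. That of Rhbg to Glul, which is not a member, averaged -5.95 ± 0.53 in Li-KO and -7.67 ± 0.14 in Ctl (SD, n = 3 each). The ratio of Rnf43 to Znrf3 overlapped between the groups, with 0.35 to 0.82 in Li-KO and -0.55 to 0.63 in Ctl. A ratio within a library does not depend on the scaling between libraries, and shows unequal change of its genes only.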
